A study of Homo sapiens with 6 samples.

Results

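MYC and the MAX network form a group of transcription factors that share a dimerisation domain and compete for one partner, MAX. The group was defined by gene name: 10 genes (MYC, MYCN, MAX, MXD1, MXD3, MXD4, MXI1, MNT, MLX and MGA), of 36337 gene names on the array, for which it carries 21 probes among 50599 for cell RNA. All 10 genes had at least 1 probe bright enough to be tested, 16 probes in all, and none of the 16 differed between the groups beyond the spread between arrays.

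The RNA came from MOLT-4, an established line of T-cell acute lymphoblastic leukaemia. Cells had been transfected with an empty vector (mock) or with NUDT16, an enzyme that removes RNA caps, with 3 arrays per group. Total RNA was immunoprecipitated for m3G and m7G caps, the methylated guanosine structures at RNA 5′ ends, and the eluate was copied into cDNA, labelled with Cy3 and hybridised. The study concerns the epigenetic silencing of NUDT16 in this leukaemia, so the comparison asks which capped transcripts change when the enzyme is put back. The vector's promoter and whether the cells were a clone are not given in the sources used here, nor whether replicates were separate cultures, so p-values measure the spread between these arrays only. A change in transcript amount and a change in capping cannot be told apart in an eluate measured alone.

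MYC binds DNA as a dimer with MAX at the E-box, CACGTG, and recruits histone acetyltransferases that raise transcription of genes for growth, ribosome assembly and metabolism. MXD1, MXD3, MXD4, MXI1 and MNT also dimerise with MAX but carry a short helix that recruits the SIN3 corepressor, so they oppose MYC at the same sites. MLX is a second hub that pairs with MXD1, MXD4, MNT and the glucose-responsive MLXIP and MLXIPL, while MGA joins MAX to a Polycomb complex. In T-cell leukaemia, NOTCH1 drives MYC transcription, and MYC mRNA is known for its short life.

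Probes of this array are 60 bases long. The sequences of 3 probes are shown because they lie in coding sequence for the parts that define the network, and the MXI1 probe is the only one of the group that passed the test in any fit. In the MAX probe, capitals mark codons of the basic region that contacts the E-box. In the MXI1 probe they mark codons of the helix that binds SIN3, and in the MXD1 probe codons of the stretch that follows this helix.

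MAX A_23_P151662: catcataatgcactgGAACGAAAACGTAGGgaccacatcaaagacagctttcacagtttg

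MXI1 A_33_P3263902: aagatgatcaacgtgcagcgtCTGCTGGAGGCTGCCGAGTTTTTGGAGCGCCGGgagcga

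MXD1 A_23_P408094: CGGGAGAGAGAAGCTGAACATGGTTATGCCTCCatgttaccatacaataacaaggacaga

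Some of the network's own promoters hold the E-box letters. RefSeq promoter windows (GRCh38.p14, 250 bases before to 50 after the start) were at hand for 9 of the 10 genes, MYC not among them, and 3 of the 9 held CACGTG (a palindrome, so the same on both strands). Of all 27305 promoter windows 8.77% held it, and of the 7574 tested genes with a window 1005 did. The matches are shown with 12 bases on either side, on the gene's strand, with the motif in capitals. They lie at chr4:2262330-2262359 (minus strand) for MXD4, chr17:2401236-2401265 (minus strand) for MNT and chr17:42567038-42567067 (plus strand) for MLX, and the motif begins 238, 193 and 50 bases before the start.

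MXD4: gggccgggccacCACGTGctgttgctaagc

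MNT: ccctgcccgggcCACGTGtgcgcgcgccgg

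MLX: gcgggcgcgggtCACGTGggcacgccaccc

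A match of letters is a description of these windows and not a bound site.

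The arrays were of unequal quality, which touches every value below. Between 39.3% and 52.0% of the 58717 spots for cell RNA lay well above background on 5 arrays, against 14.6% on NUDT16 replicate 2. On that array 4 of the 21 probes of the network were well above background, and 12 of the 16 tested probes were not, so their values there are background readings. The arrays lay on 3 slides, each with the mock and the NUDT16 array of one replicate number. Neither of the 2 probes for NUDT16 was well above background on any array, so they did not check the labels. The only probe called among all 17765 tested belonged to the pseudogene NUDT16P1; it was higher with NUDT16 by 6.91 (limma adjusted p 0.0015). All 3 arrays that detected it were NUDT16 arrays, so the mock side of this difference is a background reading. Of 18 markers of the T lineage and immature thymocytes, 12 were well above background on all 6 arrays, among them CD3D, CD3E, CD1B, PTCRA and DNTT, and all 5 fibroblast markers were at background on every array. Of the B cell and epithelial markers 1 of 5 each was also well above background on all 6 arrays, CD79A and KRT8, and of 5 myeloid and 4 erythroid markers none. Signals are given as log2 relative to the 75th percentile, on the same array, of the 6582 probes well above background on all arrays. They compare arrays for one probe and do not rank genes.

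**Figure D1:**
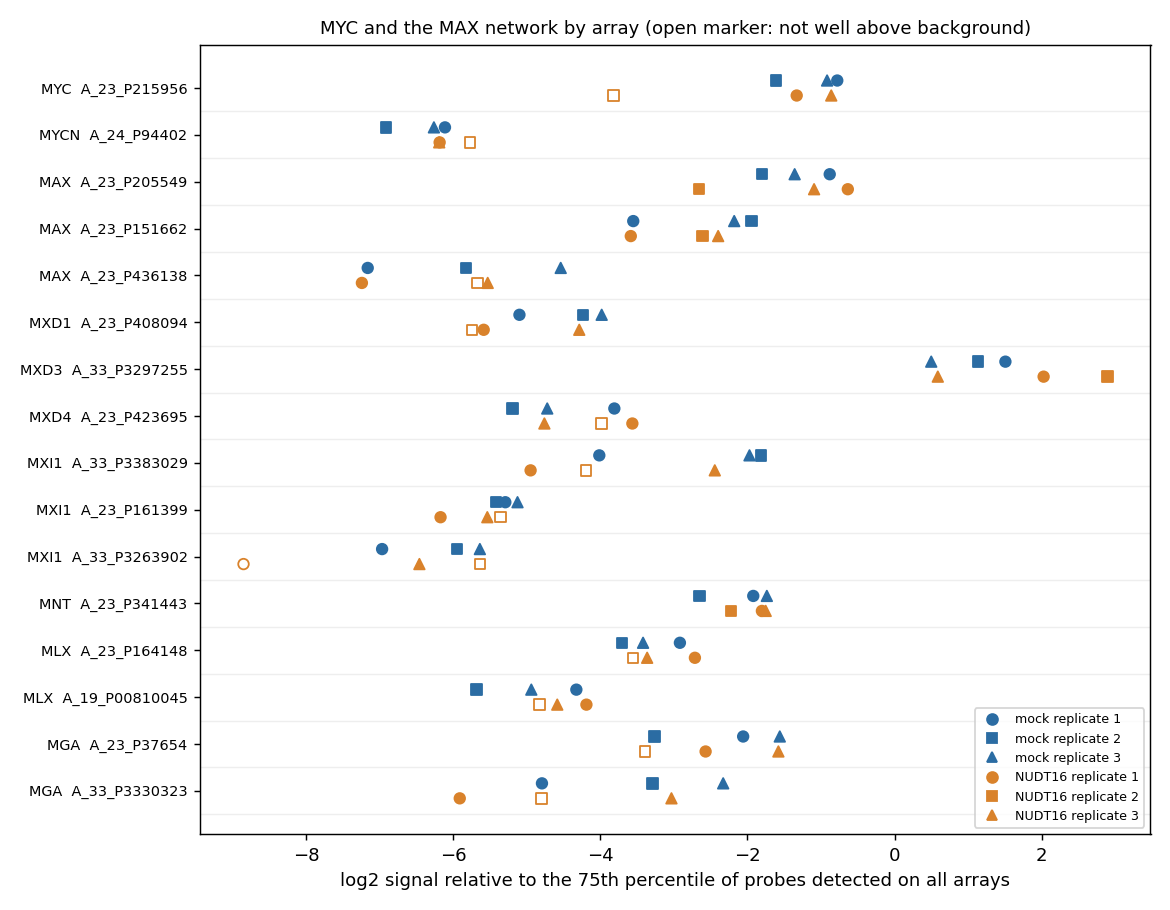
Log2 signal (horizontal axis, relative to the 75th percentile of detected probes) of the 16 tested probes of the network on each of the 6 arrays; colour gives the group, shape the replicate number, and open markers a value not well above background. Mock and NUDT16 arrays overlapped for all 16 probes, and 12 of the NUDT16 replicate 2 markers are open.

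MYC itself was bright on 5 arrays and near background on the remaining one. Its probe A_23_P215956 lies at chr8:128753268-128753327 (hg19, plus strand) and is printed in 10 spots on each array. For replicates 1, 2 and 3 it read -0.78, -1.61 and -0.92 in mock and -1.33, -3.82 and -0.86 with NUDT16. NUDT16 replicate 2 is thus low and the groups overlap. The difference of -0.90 (SE 0.79, 95% interval -2.61 to 0.81) was no larger than the spread of the arrays. Its limma adjusted p was 0.999, and a two-sided exact permutation test gave p = 0.6, where 0.1 is the smallest that 3 against 3 can reach.

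The 10 MYC spots measure the spot error within an array, not that between arrays. Their SD was 0.030 to 0.10 on the log2 scale on the 5 other arrays and 0.45 on NUDT16 replicate 2, where 2 of the 10 spots were well above background. The median unscaled intensity of the spots was 4381, 866 and 2511 in mock and 3086, 14.8 and 3844 with NUDT16.

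By same-numbered pair, MYC differed by -0.55, -2.21 and 0.06. The lowest signal well above background on NUDT16 replicate 2 was -3.52. With it in place of the MYC reading, MYC was 3.76-fold lower than on mock replicate 2, in 1 pair of arrays with no replicate. This is not a strict limit. A probe can read above that signal without being well above background, as an MGA probe did there (-3.39). Without NUDT16 replicate 2 the MYC difference was 0.0073, and in the pairs of replicates 1 and 3 it was -0.25 (limma adjusted p 0.657 with replicate number as a block). The size of the MYC difference therefore rested largely on that array, and its sign turned in 1 of 19 alternatives, the one without NUDT16 replicate 2. A second MYC probe, A_33_P3245163 (chr8:128748076-128748135), was well above background on 1 of the 6 arrays and was not tested.

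MYCN, the paralogue known from neuroblastoma, was dim. Its probe A_24_P94402 (chr2:16086767-16086826) read -6.11, -6.91 and -6.26 in mock and -6.18, -5.77 and -6.19 with NUDT16. The value of NUDT16 replicate 2, the highest, was a background reading. Without that array's pair the difference was -0.00027, against 0.38 (SE 0.58, limma adjusted p 0.999) over all arrays.

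MAX, the obligate partner, was measured by 3 tested probes, of which one varied over the arrays unlike the other two. The 3′-most, A_23_P205549 (chr14:65542003-65542062, minus strand), read -0.88, -1.80 and -1.36 in mock and -0.64, -2.66 and -1.09 in NUDT16 arrays. Both replicate 2 arrays were lowest in their group, and the difference of -0.12 (SE 0.68, 95% interval -1.60 to 1.37, limma adjusted p 0.999, exact permutation p = 0.9) was small against the spread. It was 0.25 and 0.26 in the pairs of replicates 1 and 3 and -0.86 in that of replicate 2.

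The probe in the basic region of MAX, A_23_P151662 (chr14:65560459-65560518), gave another order of arrays. It read -3.55, -1.95 and -2.18 in mock and -3.59, -2.61 and -2.40 in NUDT16 arrays, so both replicate 1 arrays were lowest. Its difference was -0.30 (SE 0.66, limma adjusted p 0.999). The third probe, A_23_P436138 (chr14:65550834-65550893), differed by -0.31 (SE 0.78), and was lowest on both replicate 1 arrays too. MAX was among the few genes of the network with probes well above background on all 6 arrays, at 2 of its 3 probes.

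Among the MXD repressors, MXD3 lay higher and MXD1 lower in NUDT16 arrays, both within the spread. MXD3, which is expressed in cycling cells, was well above background on all 6 arrays. Its probe A_33_P3297255 (chr5:176734216-176734275, minus strand) read 1.51, 1.14 and 0.50 in mock and 2.03, 2.89 and 0.59 in NUDT16 arrays. NUDT16 was higher in 3 of 3 pairs, by 0.52, 1.76 and 0.09, with a mean of 0.79 (SE 0.70, 95% interval -0.74 to 2.32, limma adjusted p 0.999). Without NUDT16 replicate 2 it was 0.26.

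MXD1, which rises as cells leave the cycle and differentiate, lay lower. A_23_P408094, which spans a splice junction (chr2:70142526-70143302), read -5.10, -4.24 and -3.98 in mock and -5.59, -5.75 and -4.29 in NUDT16 arrays. It was lower by 0.49 and 0.30 in size in the pairs of replicates 1 and 3. In the pair of replicate 2 the NUDT16 value was a background reading and the mock value lay below the lowest signal above background on that NUDT16 array, so no direction can be read there. The mean difference was -0.77 (SE 0.65, limma adjusted p 0.999).

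MXD4 was close between groups at its tested probe, in the pairs where that probe could be read. A_23_P423695 (chr4:2251280-2251339, minus strand) read -3.81, -5.19 and -4.72 in mock and -3.56, -3.98 and -4.76 in NUDT16 arrays, and differed by 0.24 and -0.04 in the pairs of replicates 1 and 3. The overall 0.47 (SE 0.64) included the background reading of NUDT16 replicate 2. Second probes of MXD1, MXD3 and MXD4 each fell short on at least 1 array of both groups and were not tested. That of MXD4, A_24_P234732, was well above background in the pairs of replicates 1 and 3. It was higher with NUDT16 there, by 0.60 and 0.53.

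MXI1, the MAX partner also called MAD2, held the lowest single difference of the network. All 3 of its probes, not all listed under the same transcript, lay lower in NUDT16 arrays, and none passed the test. A_33_P3383029 (chr10:112044747-112044806) read -4.01, -1.82 and -1.97 in mock and -4.95, -4.19 and -2.44 in NUDT16 arrays. It was lower in 3 of 3 pairs (-0.93, -2.38 and -0.47), with a mean of -1.26 (SE 0.82, 95% interval -3.04 to 0.52, limma adjusted p 0.999). On the pair of replicate 2 the NUDT16 value was at background. With the lowest signal above background on that array in its place, MXI1 was 3.26-fold lower there, again not a strict limit.

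The MXI1 probe in the SIN3-binding helix, A_33_P3263902 (chr10:111985981-111986040), was dim. It read -6.97, -5.95 and -5.64 in mock and -8.85, -5.63 and -6.46 in NUDT16 arrays, with NUDT16 replicate 3 the only one of its group well above background. Over all arrays the difference was -0.80 (SE 0.82, limma adjusted p 0.999). In the pairs of replicates 1 and 3 alone, blocked by replicate number, it was -1.35 and passed the test (limma adjusted p 0.0015), although the value of NUDT16 replicate 1 was a background reading. That fit called 613 of 17765 probes (3.45%), 601 lower (3.38%) and 12 higher (0.0675%), and this was 1 of the network's 16. The median of all probes was then -0.22. The third probe, A_23_P161399 (chr10:112045945-112046001), differed by -0.88, 0.06 and -0.41 in the pairs, with a background reading behind the value of replicate 2.

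MNT, a partner of both hubs, and MLX lay close together in the 2 groups. The MNT probe A_23_P341443 (chr17:2287576-2287635, minus strand) was well above background on all 6 arrays and read -1.92, -2.65 and -1.74 in mock and -1.80, -2.22 and -1.75 in NUDT16 arrays. The difference was 0.18 (SE 0.59, 95% interval -1.10 to 1.46, limma adjusted p 0.999), and 0.12, 0.43 and -0.02 by pair. This MNT probe therefore stayed within 0.43 in each pair, including the dim array. A second MNT probe, A_33_P3246733, was not well above background on either replicate 2 array and was not tested. It differed by -0.33 and -0.27 in the pairs of replicates 1 and 3.

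MLX was measured by 2 tested probes that pointed the same way. A_23_P164148 (chr17:40724283-40724342) read -2.92, -3.71 and -3.42 in mock and -2.71, -3.56 and -3.36 in NUDT16 arrays, with pair differences of 0.20, 0.15 and 0.06. A_19_P00810045, which spans a splice junction (chr17:40721610-40722044), differed by 0.14, 0.86 and 0.35. Neither mean, 0.14 (SE 0.59) and 0.45 (SE 0.61), passed the test (limma adjusted p 0.999), and both values of NUDT16 replicate 2 were at background.

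MGA, the largest protein of the network and its link to Polycomb, had a pair of probes with unequal differences. A_23_P37654 (chr15:42061855-42061914) read -2.06, -3.26 and -1.56 in mock and -2.57, -3.39 and -1.58 in NUDT16 arrays, a difference of -0.22 (SE 0.70). The probe further upstream, A_33_P3330323 (chr15:42021388-42021447), read -4.79, -3.29 and -2.33 in mock and -5.91, -4.80 and -3.03 in NUDT16 arrays. It was lower by 1.12 and 0.70 in size in the pairs of replicates 1 and 3. On NUDT16 replicate 2 both MGA probes were at background. With the lowest signal above background on that array in place of the upstream reading, the upstream probe was 1.18-fold lower in its pair. This is not a limit, as A_23_P37654 read above that signal on the same array while at background. The mean of the upstream probe, with the background reading in it, was -1.11 (SE 0.85, 95% interval -2.96 to 0.74, limma adjusted p 0.999).

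**Figure D2:**
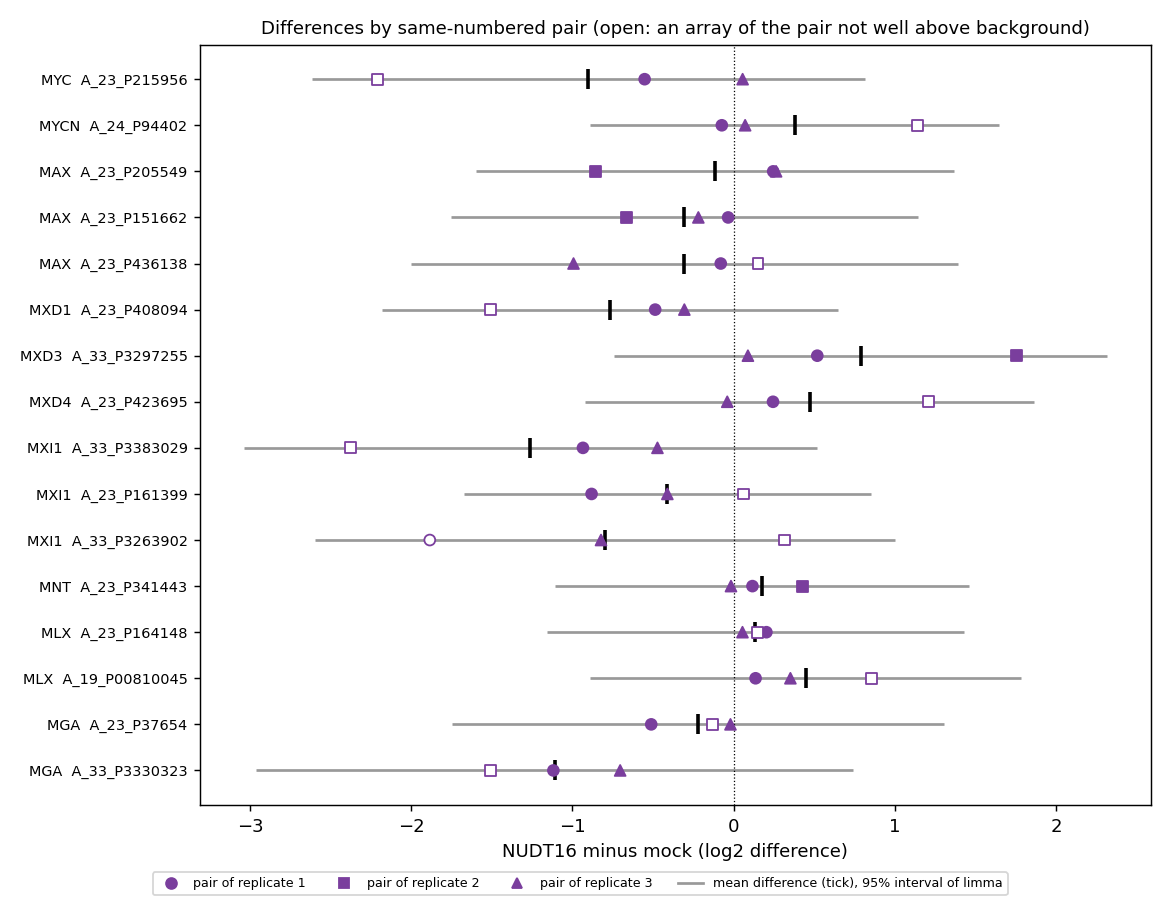
NUDT16 minus mock (horizontal axis, log2) for each tested probe in the 3 same-numbered pairs (shapes; open where an array of the pair was not well above background), with limma's mean difference (tick) and 95% interval (grey line). Intervals are from the fit without a block. Every interval spans 0, and the pair of replicate 2 lies farthest from 0 for 11 of the 16, MYC, MYCN and MXD3 among them.

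Over the network, 0 of 16 tested probes were called by limma, against 1 of 17765 probes (0.00563%) over the array. An unadjusted limma p under 0.05 was found for 0 of the 16, beside 8 of the 17765. Of the 16, 6 lay higher and 10 lower, with a median of -0.26, where all tested probes had a median of -0.11 and 43.2% higher. The groups overlapped for all 16, and failed to overlap for 0.591% of all probes. Of the 16, 12 had passed the brightness filter through the mock arrays alone, so the filter selected on the mock side. For 8 of these 12 the value of mock replicate 2 lay below the lowest signal above background on NUDT16 replicate 2. No direction could be read there, and the split by direction supports nothing. When replicate number entered the fit as a block, 0 of the 16 were called, where the whole array had 1 (0.00563%). An unadjusted limma p under 0.05 was then found for 2 of the 16, beside 1734 of the 17765 over the array. Adjusted p values of the 16 ran from 0.467 to 0.887 in that fit. With the block the median SE over all tested probes was 0.35, against 0.68 without. The SE of the MXI1 probe A_33_P3383029 (difference -1.26) was then 0.43, against 0.82. That of the MGA probe A_33_P3330323 (-1.11) was 0.33, against 0.85. These were the 2 with an unadjusted limma p under 0.05, and both gave background readings on NUDT16 replicate 2.

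Probes of 1 gene could be compared within an array, where scaling cancels. For each of the 4 genes with at least 2 tested probes, the gap between the most upstream and the most downstream probe was taken on every array and expressed from its own mean over the 6 arrays. The array lists these outermost probes under different RefSeq transcripts for MAX, MXI1 and MGA, and under the same transcript for MLX. A gap can therefore compare transcript forms as well as positions, which was not tested. For MAX, with probes 18.5 kb apart, the gap was -1.36, 1.16 and 0.49 in mock and -1.64, 1.36 and 0.0030 with NUDT16. Replicate 1 was thus low in both groups and replicate 2 high.

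MGA, with probes 40.5 kb apart, showed the same order of replicates in mock and a low replicate 1 in both groups: -1.11, 1.59 and 0.85 in mock and -1.72, 0.22 and 0.17 in NUDT16 arrays. Both MGA probes were at background on NUDT16 replicate 2, so its gap is not a measurement there. In the other 2 pairs the upstream probe was lower relative to the downstream one with NUDT16, by 0.61 and 0.68 in size. The gap of MAX also fell in the pairs of replicates 1 and 3, by 0.28 and 0.48 in size, and rose by 0.19 in that of replicate 2. MXI1, with probes 60.0 kb apart, read -0.58, 0.57 and 0.59 in mock and -1.58, 0.83 and 0.17 in NUDT16 arrays, again lowest on both replicate 1 arrays. Its NUDT16 values of replicates 1 and 2 include background readings, and in the pair of replicate 3 its gap fell by 0.41 in size. MLX, with probes 2.67 kb apart, varied from -0.50 to 0.26, with background readings on NUDT16 replicate 2. Its gap differed by -0.07 and 0.30 in the pairs of replicates 1 and 3.

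The gaps of the groups overlapped for all 4 genes. An exact two-sided permutation test that did not use the pairing gave p = 0.8 for MAX, 0.7 for MXI1, 0.2 for MLX and 0.4 for MGA, and 0.8 for each after Benjamini-Hochberg adjustment over the 4. With 3 against 3 it cannot go below 0.1, so it does not show that the gaps were alike. What the 3 genes with distant probes shared was the replicate number, which is also the slide; its part in the gap cannot be told apart from sample preparation. This comparison was chosen after the values were seen.

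**Figure D3:**
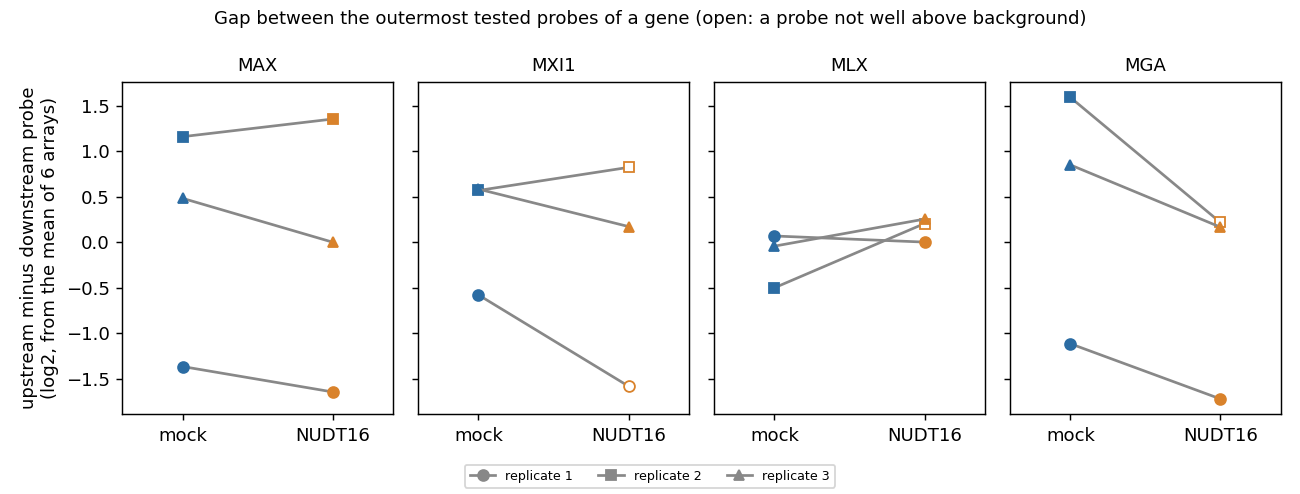
Gap between the most upstream and the most downstream tested probe of each gene (vertical axis, log2, from the mean of the 6 arrays) in mock and NUDT16 arrays; lines join arrays of one replicate number, and open markers include a probe not well above background. Both replicate 1 arrays are lowest for MAX, MXI1 and MGA. The lines for MGA fall in both pairs that could be read. Those for MAX fall in the pairs of replicates 1 and 3 and rise in that of replicate 2.

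Genes that act with the network were then examined by list, with the brightest tested probe for each gene. Over 13734 genes tested the median difference was -0.06, 45.8% were higher, and 1 was called. None of the lists held a gene that limma called over all arrays, nor one with an unadjusted p under 0.05, which 7 of the 13734 had.

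The extended network (MYCL1, MLXIP, MLXIPL, MYCBP, MYCBP2, PVT1, USF1, USF2, TFE3 and TFEB on the array) had 9 genes tested, 5 higher and 4 lower, with a median of 0.08. PVT1, the long noncoding RNA gene next to MYC, was at 0.96 (SE 0.69), from 0.18, 2.57 and 0.12 by pair, so 1 pair gave most of it. MYCBP2, a large ubiquitin ligase named for binding MYC, was at -0.81 (SE 0.82). The 17 coactivators and cofactors tested had 10 higher and a median of 0.05. KAT2A, the acetyltransferase GCN5, was at 1.03 (SE 0.78), and ACTL6A, an actin-related subunit of chromatin complexes, at -0.98 (SE 0.64); each kept its sign in 3 of 3 pairs.

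The corepressors and the MGA complex had medians below 0, with no call. Of 10 genes of the SIN3 and NCOR complexes, 3 were higher, and the median was -0.50. HDAC2, a histone deacetylase of the SIN3 complex, was at -1.04 (SE 0.65) and SIN3B, a scaffold of it, at 0.62 (SE 0.75). SAP18, a SIN3-associated protein detected on 4 arrays, was called in the pairs of replicates 1 and 3 with the block (-1.15, limma adjusted p 0.011), 1 of 10 genes there, beside 383 of 13734 genes. Its value on NUDT16 replicate 1, -9.01, was below the lowest signal above background on that array (-7.60), and the pair of replicate 3 differed by 0.04. Of 8 genes of the MGA complex, 1 was higher, RING1 at 0.47 (SE 0.64), and the median was -0.50 (0.42 with normexp background correction), with CBX3 (HP1 gamma) at -0.91 (SE 0.67). Both medians were near 0 in the pair of replicate 3, at 0.08 and -0.09. In the pair of replicate 1 they were -0.53 and -0.64, where the median of all genes was -0.32, and in that of replicate 2 -0.83 and -0.57, where it was 0.12. On NUDT16 replicate 2 SIN3A, SAP18, E2F6, PCGF6, RNF2, RYBP and YAF2 gave background readings. Any tested gene at background on that array had passed the filter through the mock arrays alone, so the filter selected on the mock side. The splits of the lists by direction therefore support nothing. Of 16 genes for MYC protein turnover, 5 were higher, with a median of -0.30, which was 0.24 with normexp and 0.25 over genes detected on all 6 arrays. The median of all probes moved too, from -0.11 to 0.47 with normexp and 0.16 with detection on all 6 arrays. With normexp the turnover and MGA complex medians thus still lay below that of all probes. GSK3A, a kinase of the family that marks MYC for degradation, was at 0.59 (SE 0.63) and SKP1, a subunit of the ligases that carry this out, at -0.42 (SE 0.58).

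Genes that MYC is known to induce lay near the rest of the array. Of 48 tested, 17 were higher and 31 lower, with a median of -0.17, and -0.32, -0.16 and -0.05 by pair, beside -0.32, 0.12 and -0.03 for all genes. NCL, the nucleolar protein nucleolin, was lower in 3 of 3 pairs (-1.33, -1.40 and -0.98), with a mean of -1.24 (SE 0.76). It was called in the pairs of replicates 1 and 3 with the block (-1.16, limma adjusted p 0.00945), 1 of 48 genes there, beside 383 of 13734 genes. Calls of that fit were nearly all lower (601 of 613 probes), and the median of all genes in it was -0.19. NOLC1, another nucleolar protein, was at -1.25 (SE 0.82) and C6orf108 (now DNPH1), a nucleotide hydrolase, at 0.68 (SE 0.67).

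Of 16 genes that MYC is known to repress, 6 were higher, with a median of -0.13. GADD45B, a growth-arrest gene, was at 0.59 (SE 0.62), higher in 3 of 3 pairs, and its relative GADD45A at -0.82 (SE 0.89). Without scaling between arrays, all probes shifted to a median of -1.10 and every list lay below 0 with them.

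**Figure D4:**
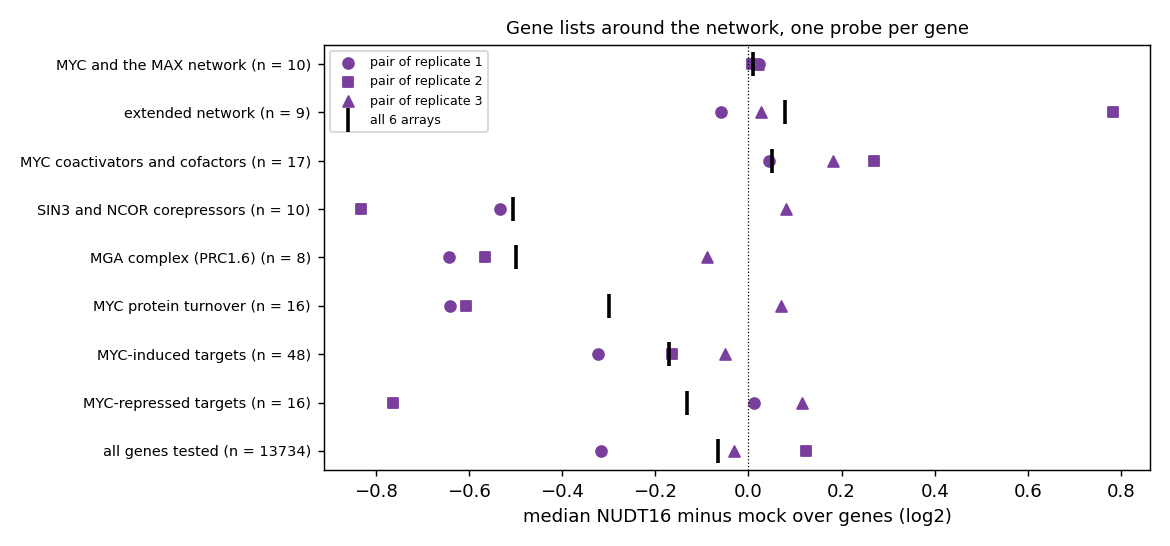
Median NUDT16 minus mock difference (horizontal axis, log2) of each gene list in the 3 same-numbered pairs (shapes) and over all 6 arrays (tick), with the number of genes tested. The network's 10 genes, one probe each, lie at 0.01, and the lists spread more widely in the pair of replicate 2 than in that of replicate 3.

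Genes with the E-box letters lay close to those without them. Of 7574 tested genes with a promoter window, the 1005 with CACGTG had a median difference of -0.09 and the 6569 without had -0.12. Among the lists, 19 of 39 MYC-induced genes with a window held the letters (48.7%), and 3 of 13 MYC-repressed genes did. Beside this stand the 1005 of 7574 tested genes and 8.77% of all windows, most of them of genes not tested. The lists were chosen as known MYC targets, so their share is a description only.

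The genes whose profile over the 6 arrays was most like that of MYC shared its single low array. By Pearson correlation across 6 arrays, among 15970 probes well above background on at least 5 arrays, these were UBE2R2, RNF114, MSI2, LIX1L and UBR7, with r from 0.996 to 0.998. UBE2R2, a ubiquitin-conjugating enzyme, read -2.68, -3.39 and -2.83 in mock and -3.13, -5.04 and -2.91 in NUDT16 arrays, and its value on NUDT16 replicate 2, like that of MYC, was a background reading. Within the network the MAX probe A_23_P205549 (r = 0.87) and the MGA probe A_23_P37654 (r = 0.78) were most like MYC, and MXD3 least (r = -0.81). These values describe 6 arrays, of which NUDT16 replicate 2 lies far from the others.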

How the data were processed

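Each sample is one 1-colour Agilent array (design 039494, coordinates on hg19). Per the file headers, the deposited intensity values come from Feature Extraction 10.7.3.1, are background subtracted and detrended within the array, and carry surrogates for dim spots, which flatten differences there. The authors' deposited value table is log2; the submitters' processing notes name limma without steps, and the table's ranks equal those of median spot minus background intensity (Spearman's rho 1 on all arrays), with column medians from 6.06 to 6.18; its centring is unstated.

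Control spots and outlier spots (0.628% of spots) were left out, spots of a probe were averaged as log2, and 13 probes left with no spot on 1 or more arrays were dropped. Arrays were scaled to their 75th percentile over probes well above background on all 6 arrays, because the percentile over all probes fell among background values on NUDT16 replicate 2. A probe was tested if it was well above background on each of the 3 arrays of either group; the test was limma 3.58.1 (R 4.3.3), two-sided, Benjamini-Hochberg adjusted at 0.05, without a block. A probe counted as well above background where over 50% of its spots did.

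Arrays of one number share a slide and deviated together from their group means (r = 0.84, 0.39 and 0.77 for the 3 numbers), so the numbers pair the arrays; the block changed no call among the network's probes. The limma procedure was tested on simulated data, whose outcome is not given here and does not bear on how it behaves on these arrays. The number of arrays limits precision. Of the 21 probes, 20 carried an accession that matched the RefSeq table (GRCh38.p14, names only), all under the same symbol. From each list, the genes with the highest and lowest difference among those detected on all arrays were named, and NCL and SAP18 for their call in the fit to replicates 1 and 3, SAP18 outside the rule and after its values were seen. Members, lists and rules were chosen with earlier results of these data known. Lists were described by counts and medians without a set test. Alternatives are under the closing section.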

Additional observations from a re-analysis of the deposited data

How the results depend on the processing

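Over 308 alternative values for the network's 16 probes, 275 kept their direction and 1 passed the threshold, the MXI1 probe in the fit to replicates 1 and 3 blocked by number. The replicate block itself changed no call and no difference (MYC -0.90, MAX -0.12, 1 probe called). The count of network probes called was 0 elsewhere and 1 in that fit, which called 613 probes, 12 higher and 601 lower. The count of probes called, and of those called higher, was 0 without scaling, with normexp, with no filter, with the authors' value table and for replicates 1 and 3 without the block. It was also 0 when detection on all 6 arrays was required. That filter removes the called NUDT16P1 probe, detected on 3 arrays, before the test. Leaving out one array gave 0 to 1 probes called and 0 to 1 higher, the 0 being without mock replicate 2; the cause was not tested.

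The MYC difference ran from -1.47 to 0.0073 when one array was left out, with the sign turned without NUDT16 replicate 2, and from -1.90 over the other settings. The MAX difference ran from -0.53 to 0.48, turned without mock replicate 1 and without NUDT16 replicate 2, and was 0.26 with normexp and 0.26 for replicates 1 and 3, with or without the block.

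Without scaling, MYCN (-0.62), MXD3 (-0.21), MXD4 (-0.52), MNT (-0.82) and both MLX probes (-0.86 and -0.55) turned negative, all above the median of all probes, -1.10. Normexp, where that median was 0.47, turned MAX A_23_P151662 (0.072), MAX A_23_P436138 (0.54), MXD1 (0.33), MXI1 A_23_P161399 (0.44), MXI1 A_33_P3263902 (0.38) and MGA A_23_P37654 (0.27). MYCN was also -0.74 with quantile normalization, -0.45 with the authors' table and -0.00027 for replicates 1 and 3. MAX A_23_P151662 was 0.0063 with the authors' table. Leaving out one array turned MAX A_23_P151662 (-0.80 to 0.056), MAX A_23_P436138 (-0.97 to 0.34), MXI1 A_33_P3263902 (-1.47 to 0.14), MNT (-0.097 to 0.36), MLX A_23_P164148 (-0.11 to 0.35) and MGA A_23_P37654 (-0.70 to 0.22). The 12 probes at background on NUDT16 replicate 2 drop out when detection on all 6 arrays is required. Of 147 list medians 7 moved beyond the spread between arrays, all without scaling. Other medians turned sign: with normexp the MGA complex moved to 0.42, turnover to 0.24, MYC-induced genes to 0.058 and MYC-repressed genes to 0.29. Signs also turned for turnover, to 0.25 with detection on all 6 arrays, where all probes had a median of 0.16. The repressed genes turned to 0.14 without NUDT16 replicate 2, and the coactivators to -0.13 with quantile normalization and -0.073 with the authors' table. The coactivators were at 0.56 with detection on all 6 arrays, and without NUDT16 replicate 2 they were at 0.43 and the SIN3 and NCOR list at -0.082.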
